A study of Mus musculus with 22 samples.

Results

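miR-483 is a microRNA (miRNA) hairpin that lies inside Igf2, the gene of insulin-like growth factor 2, and it gives 2 mature miRNAs, mmu-miR-483-5p and mmu-miR-483-3p (here miR-483-5p and miR-483-3p). Both were taken by name from the scanner files of 22 Agilent mouse miRNA arrays, as 2 of the 1881 mouse miRNAs on the array. They are read by 6 of its 4415 mouse miRNA probes, 4 for the 5p arm and 2 for the 3p arm, which fill 60 of 56430 spots. The hairpin was selected on the change of its 5p arm between irradiated and unirradiated intestine, so the intestinal values are a description and carry no test.

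The study asked how miRNAs outside cells, in serum and feces, differ after a high dose of radiation, with small intestine as the exposed tissue. The groups were feces at 10 Gy (4 arrays), feces at 0 Gy (4), serum at 10 Gy (4), serum at 0 Gy (2), small intestine at 10 Gy (4) and small intestine at 0 Gy (4). The mice were male, 8 weeks old, and exposed to X-rays at 1.0 Gy per minute or left unexposed, and the serum came from blood drawn from the heart. The strain and the time between irradiation and collection are not given in the sources used here. The labels do not say that each sample is a different animal, so the p-values rest on a spread between samples that may be in part technical.

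Igf2 is an imprinted gene, read mainly from the paternal chromosome, whose product drives growth before birth and which is largely switched off in most mouse tissues afterwards. A miRNA hairpin is cut into a duplex of its arms, and usually 1 arm is kept in an Argonaute protein, where bases 2 to 8, the seed, pair with target messengers. In human cells the 5p arm has been described as raising transcription of IGF2 itself, and the 3p arm as lowering BBC3 (PUMA), a cell death gene downstream of p53. miRNAs packed in vesicles or bound to protein survive outside cells, which is why they are measured in serum and feces.

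The sequences of both arms are shown because the 2 arms stand at opposite ends of the array in base composition. They come from RefSeq (build GRCm38.p6, minus strand), 5′ to 3′, with the seed in capitals. In the hairpin, the capitals mark the mature arms, at bases 8 to 29 and 45 to 65.
miR-483-5p, 22 bases, chr7:142654968-142654989: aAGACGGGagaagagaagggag
miR-483-3p, 21 bases, chr7:142654932-142654952: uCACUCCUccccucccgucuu
mir-483 hairpin, 73 bases, chr7:142654924-142654996: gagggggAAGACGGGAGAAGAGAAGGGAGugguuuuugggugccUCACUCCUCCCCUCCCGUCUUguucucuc

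Of the 22 bases of the 5p arm 21 are purines (A or G), with 1 C and no U. Of the 21 bases of the 3p arm 2 are purines. Among the 1608 array miRNAs with a RefSeq sequence, whose median purine share is 50%, the 5p arm stands alone at the top with 95.5% and the 3p arm ranks 1604th with 9.52%. Neither seed occurs in any other of the 1679 mature miRNAs in the table, so neither arm has a seed family there. The hairpin lies within the annotated span of Igf2, chr7:142650768-142666816, which in turn is 72621 bases from the span of H19 (chr7:142575530-142578146). H19 is the maternally expressed non-coding RNA of the same imprinted domain, and it holds another miRNA hairpin, Mir675. The annotation used here gives spans and no exons.

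miR-483-5p was far brighter in feces than in serum or intestine, at either dose. Its processed signal (background-subtracted fluorescence, averaged over the spots of a probe and summed over the probes) was 36965, 24977, 21026 and 11758 in feces at 10 Gy, against 33130, 22523, 108843 and 79267 in feces at 0 Gy. In serum the signal was 195, 81.8, 115 and 79.6 at 10 Gy, against 253 and 126 at 0 Gy. In small intestine it was 201, 246, 349 and 159 at 10 Gy, against 63.4, 36.0, 52.1 and 43.3 at 0 Gy. The dimmest feces array thus lay above every serum and intestine array, and the arm was detected on all 22 arrays. A miRNA counted as detected where at least 50% of the spots of at least 1 of its probes were well above background.

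miR-483-3p was dim everywhere. It was detected on 4 of 4 and 4 of 4 feces arrays at 10 Gy and 0 Gy, on 0 of 4 and 0 of 2 serum arrays, and on 0 of 4 and 0 of 4 intestine arrays. Its summed signal was 50.4, 39.7, 42.8 and 36.7 in feces at 10 Gy, against 26.2, 24.2, 64.2 and 67.0 in feces at 0 Gy. The arm was therefore measured in feces only. Elsewhere its values are those of spots mostly near background, between 13.4 and 21.2 in serum and between 13.4 and 25.4 in intestine. In unirradiated feces, replicates 1 and 2 were detected through probe A_54_P3592 alone, with 8 of 15 spots well above background. The other probe, A_54_P3591, had 6 of 15 on both, short of detection. Their sums, 26.2 and 24.2, lay close to the undetected 25.4 of intestine. In intestine 20 of 120 spots of the 3p arm were well above background at 10 Gy and 2 of 120 at 0 Gy. In serum the spots were 15 of 120 at 10 Gy and 16 of 60 at 0 Gy, and in feces 120 of 120 at 10 Gy and 88 of 120 at 0 Gy. The scanner software's own detection flag is looser: it marked the 3p arm as present on every serum and feces array and on the intestine arrays of 10 Gy (4 of 4) but not of 0 Gy (0 of 4).

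**Figure D1:**
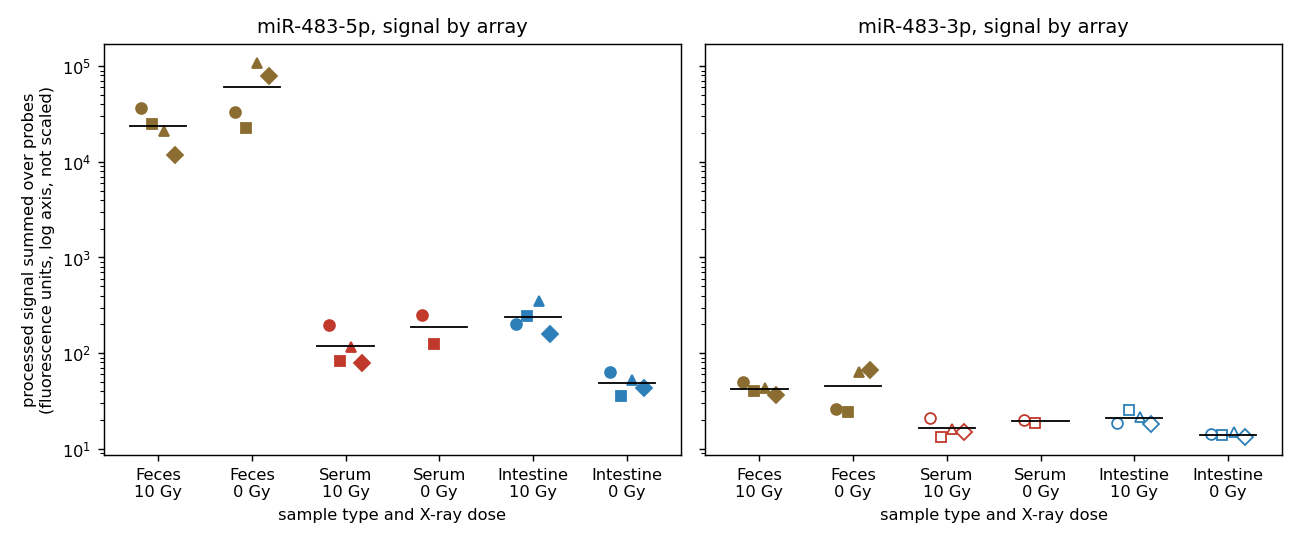
Processed signal of miR-483-5p (left panel) and miR-483-3p (right panel) on each array, in fluorescence units on a log axis without scaling between arrays, by sample type and X-ray dose. The horizontal lines are group means, circles, squares, triangles and diamonds are replicates 1 to 4, and open symbols mark arrays where the arm was not detected; the 8 feces arrays of miR-483-5p lie between 11758 and 108843, above all others.

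To set sample types side by side, each array was divided by the 75th percentile of the 81 miRNAs detected on all 22 arrays, and log2 was taken. On that scale the level of miR-483-5p averaged 2.80 ± 0.48 in feces at 10 Gy and 3.13 ± 0.37 in feces at 0 Gy (SD, n = 4 each). Serum averaged -1.51 ± 0.18 at 10 Gy (n = 4) and -1.56 ± 0.06 at 0 Gy (n = 2), and intestine -1.87 ± 0.32 at 10 Gy and -3.56 ± 0.31 at 0 Gy (n = 4 each). In order of level, unirradiated intestine came lowest, with a gap of 1.69 to irradiated intestine. Irradiated intestine, unirradiated serum and irradiated serum followed, each overlapping the next. A gap of 4.31 then led to irradiated feces, which overlapped unirradiated feces.

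Against serum, the level of miR-483-5p in feces was 19.8-fold higher at 10 Gy, a log2 difference of 4.31 ± 0.23 (SE, n = 4 against 4, 95% confidence interval 3.81 to 4.80, limma adjusted p = 8.2e-11). At 0 Gy it was 25.8-fold higher (4.69 ± 0.29, n = 4 against 2, interval 4.08 to 5.30, limma adjusted p = 7.2e-10). Such calls are common in this comparison: 24.6% of the 749 miRNAs tested were higher in feces at 10 Gy and 19.9% at 0 Gy. The size of the difference set the 5p arm near the top, which was rank 2 among the miRNAs detected on every array of both groups, behind miR-6366 at 10 Gy and behind miR-7020-5p at 0 Gy. The median differences over those miRNAs were -0.28 and -0.43. Without any scaling the differences were 7.64 and 8.14. Feces, serum and intestine each had a slide to themselves, per the file headers, and in these comparisons the slide and the kind of sample cannot be told apart.

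Against intestine, the level in feces was 25.3-fold higher at 10 Gy, a log2 difference of 4.66, and ranked 2 of 184, behind miR-7088-5p. At 0 Gy it was 103-fold higher, a log2 difference of 6.68, and ranked 1 of 147. These values share the intestine arrays that led to the choice of the hairpin and have no test. In serum the level exceeded that in intestine by a log2 difference of 0.35 at 10 Gy and 1.99 at 0 Gy. Without scaling the serum difference turned at 10 Gy (-1.06) and was 1.91 at 0 Gy, so at 10 Gy serum and intestine have no settled order.

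For miR-483-3p no fold between sample types is given. Serum and intestine give only a bound, and on the scale of all arrays the bound for either probe in feces lay under 1. Feces arrays were divided by constants between 2449 and 17587, against 216 to 770 for serum, and on this scale all 4 feces arrays at 0 Gy fell to the floor set for undetected values.

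All 4 probes of miR-483-5p were brighter in feces than in serum and intestine, by unequal amounts. In feces minus serum the log2 differences of probes 1 to 4 (A_54_P2788, A_54_P2789, A_54_P2790 and A_54_P2791) were 5.48, 4.94, 4.35 and 3.58 at 10 Gy. At 0 Gy they were 5.58, 5.35, 4.72 and 4.02. Probe 1 was detected on 1 of 4 serum arrays at 10 Gy and 1 of 2 at 0 Gy, and the other 3 probes on all of them. In feces minus intestine at 10 Gy, where all 4 probes were detected on every array, they lay closer together at 4.61, 4.91, 4.66 and 4.48. In serum minus intestine at 10 Gy the probes 2 to 4, all detected throughout, disagreed in sign, at -0.03, 0.31 and 0.90. Probes of a miRNA share its sequence and are no replicates of a condition, and their own sequences are not used here.

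**Figure D2:**
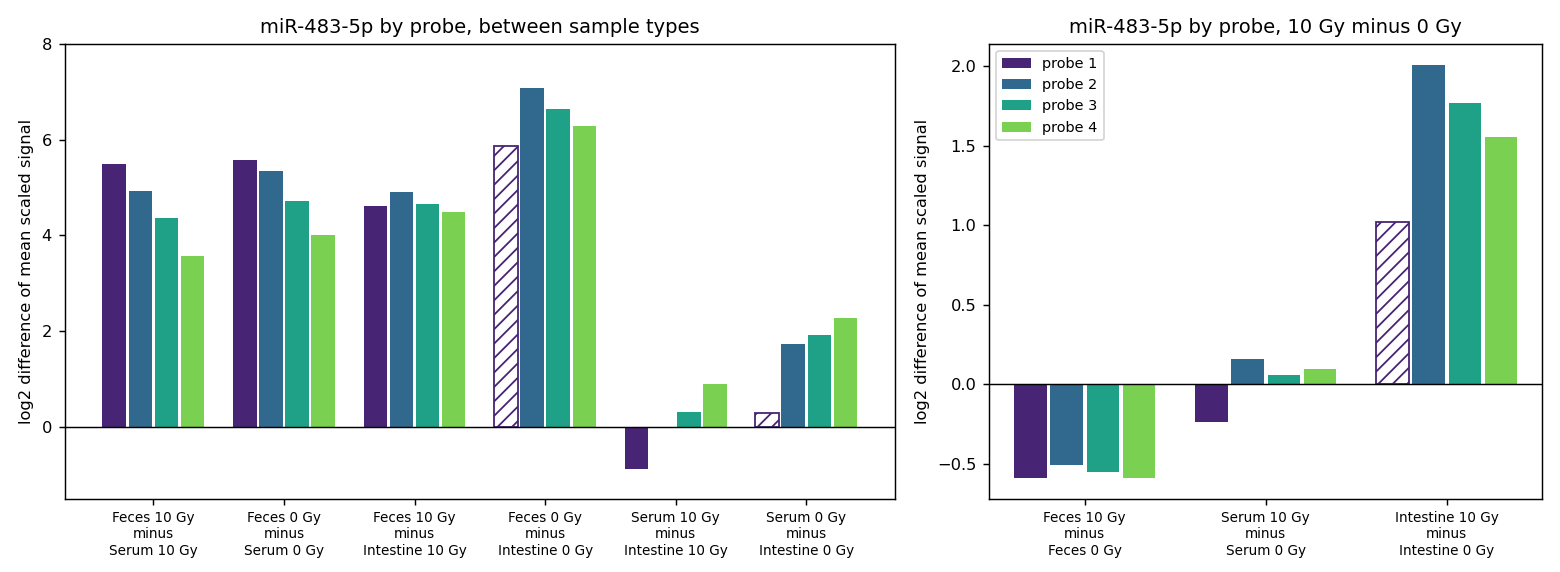
Log2 difference of the mean scaled signal for each of the 4 probes of miR-483-5p (bars), between sample types at the same dose (left panel, scaled over the miRNAs detected on all arrays) and between 10 Gy and 0 Gy within a sample type (right panel, scaled within the type). Hatched bars are lower bounds, for probe 1 against unirradiated intestine, where it was detected on 0 of 4 arrays. For serum minus intestine at 0 Gy the bound is not firm, since 1 of 2 serum arrays detected probe 1. Feces exceeded serum by 3.58 to 5.35 with probes 2 to 4, and with probe 1, which 1 of 4 and 1 of 2 serum arrays detected, the bars reach 5.48 and 5.58.

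In small intestine the level of miR-483-5p was higher at 10 Gy than at 0 Gy on every array. Scaled within the sample type, by the 269 miRNAs detected on all intestine arrays, the log2 levels were -1.44, -1.40, -1.33 and -2.06 at 10 Gy, against -2.78, -3.74, -3.36 and -3.57 at 0 Gy. The doses did not overlap, and the lowest irradiated array was replicate 4. The difference was 1.81 ± 0.24 (SE of the limma fit, n = 4 against 4), or 3.50-fold. It is the value that chose the hairpin, and it stands in a comparison where 41.2% of 335 tested miRNAs passed limma at an adjusted p below 0.05 and 23% were higher without overlap; nothing is read from either share. Its size moved with the processing: it was 2.27 without scaling, 1.29 with the percentile taken over all miRNAs, and 0.25 with normexp background correction. The normexp setting adds an offset of 50 to signals, and the probes of this arm read 3.37 to 22.8 at 0 Gy and 24.8 to 112 at 10 Gy. The part of the offset in the 0.25 was not tested.

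By probe, the intestinal signal was at least 2.03-fold higher at 10 Gy for probe 1, the brighter group against the higher of the lowest detected signal and the probe's own on each unirradiated array. The log2 differences were 2.01, 1.77 and 1.56 for probes 2 to 4. All 4 irradiated arrays detected every probe, while the unirradiated arrays detected probe 1 on 0, probe 2 on 1, probe 3 on 3 and probe 4 on 4 of 4 arrays. Of the 120 spots of miR-483-5p per group, 118 were well above background at 10 Gy and 49 at 0 Gy. The 3p arm was not detected at either dose, and its summed signals were 18.4, 25.4, 21.4 and 18.3 at 10 Gy, against 14.3, 13.8, 14.9 and 13.4 at 0 Gy, which do not overlap before scaling. After scaling the 3p levels of the doses overlapped.

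Markers of cell types in the intestine also differed between the doses. Of 8 epithelial miRNAs (such as miR-192-5p and miR-200c-3p), all detected on every intestine array, 5 fell and 0 rose at 10 Gy, with a median log2 change of -0.64 beside 0.16 over all tested, where 15.2% of all tested fell and 26% rose. Of 7 smooth muscle and mesenchyme miRNAs 3 rose, namely miR-214-3p (1.03 ± 0.19, limma adjusted p = 0.0011), miR-199a-5p (0.82 ± 0.19, adjusted p = 0.0046) and miR-199a-3p (0.80 ± 0.18, adjusted p = 0.0038). The other members did not pass, and the list's median log2 change was 0.25, beside 0.16 over all tested. Its summed signal before scaling was 5016 to 5991 at 10 Gy, against 2665 to 3623 at 0 Gy. The scaling constants of the intestine arrays also differed, 546 to 879 against 436 to 534. Of 5 leukocyte miRNAs 1 rose (miR-223-3p, 1.20 ± 0.19, adjusted p = 0.00047) and 3 fell, among them miR-142a-3p (-1.03 ± 0.22, adjusted p = 0.0034) and miR-150-5p, which was detected on 1 of 4 arrays at 10 Gy and 4 of 4 at 0 Gy. In bulk tissue fewer cells of a type and less RNA per cell cannot be told apart, and the part of these shifts in the miR-483-5p values was not tested. The irradiated arrays also detected more miRNAs, 331 to 389 against 286 to 300. How many miRNAs rose or fell in intestine depended on the scaling. As scaled here 87 passed as higher and 51 as lower. Without scaling these were 186 and 13, and with the percentile taken over all miRNAs 21 and 86. The intestinal counts of list members that rose or fell, here and below, are given for the scaling used here only.

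In serum the level of miR-483-5p did not separate the doses. Scaled within serum, by 121 common miRNAs, the log2 levels were -0.66, -0.88, -1.18 and -0.69 at 10 Gy, against -1.03 and -0.83 at 0 Gy. Both unirradiated values lay inside the irradiated range. The change was 0.08 ± 0.23 (SE, n = 4 against 2, 95% interval -0.46 to 0.62, limma adjusted p = 0.85), where 4.66% of 193 tested miRNAs passed. The interval allows a change of either sign, and the sign turned without serum 0 Gy replicate 1 (-0.04), without scaling (-0.70), with the percentile taken over all miRNAs (-0.14) and within the second row of the slide (-0.11). In the same serum the erythrocyte miRNA miR-486a-5p fell by 1.46 on the log2 scale (limma adjusted p = 0.024). The erythrocyte miRNA miR-451a also passed as lower. It was detected on 1 of 4 arrays at 10 Gy and 2 of 2 at 0 Gy, so its call rests largely on undetected values. There 3.63% of all tested fell, and the list had a summed erythrocyte signal before scaling of 728 to 2402 at 10 Gy against 4602 to 9070 at 0 Gy. The scaling constants of the serum arrays also differed, 128 to 308 against 224 to 517. None of the 8 epithelial miRNAs was detected in serum (0 of 8), nor the liver miRNA miR-122 in either arm (0 of 2).

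In feces the 2 arms differed in sign between the doses, and neither passed the test. Scaled within feces, by 326 common miRNAs, the log2 levels of miR-483-5p were 5.44, 5.02, 4.73 and 4.24 at 10 Gy, against 5.30, 5.41, 5.37 and 5.57 at 0 Gy. The irradiated arrays spread more widely (SD 0.50 against 0.11), and replicate 1 at 10 Gy lay within the unirradiated range while the other 3 lay below it. The change was -0.56 ± 0.28 (SE, n = 4 against 4, 95% interval -1.19 to 0.07, limma adjusted p = 0.18), where 7.54% of 491 tested miRNAs passed. By probe it was -0.59, -0.51, -0.55 and -0.59. Within the rows of the slide, each of which held 2 arrays of either dose, the change was -0.13 in row 1 and -0.98 in row 2.

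miR-483-3p levels in feces were -4.08, -4.28, -4.21 and -4.08 at 10 Gy, against -5.002, -4.45, -5.35 and -4.64 at 0 Gy. All irradiated arrays lay above all unirradiated ones, as 19.8% of the miRNAs tested in feces did. Unirradiated replicates 1 and 2 were only just detected, through probe A_54_P3592 alone, so part of this contrast is against values near background. The change was 0.70 ± 0.25 (SE, n = 4 against 4, 95% interval 0.13 to 1.26, limma adjusted p = 0.085), and with array weights, which give less weight to arrays that deviate, it was 0.62 with an adjusted p of 0.045. Before scaling the doses of the 3p arm overlapped and the change was 0.05. The scaling constants ran from 620 to 853 at 10 Gy and from 529 to 2627 at 0 Gy. Over the 8 feces arrays the unscaled 5p signal followed that constant (Pearson r = 0.92), and so did the unscaled 3p signal (r = 0.81). The scaled 3p level ran against it (r = -0.72), and the part of the constant in the scaled change was not tested.

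**Figure D3:**
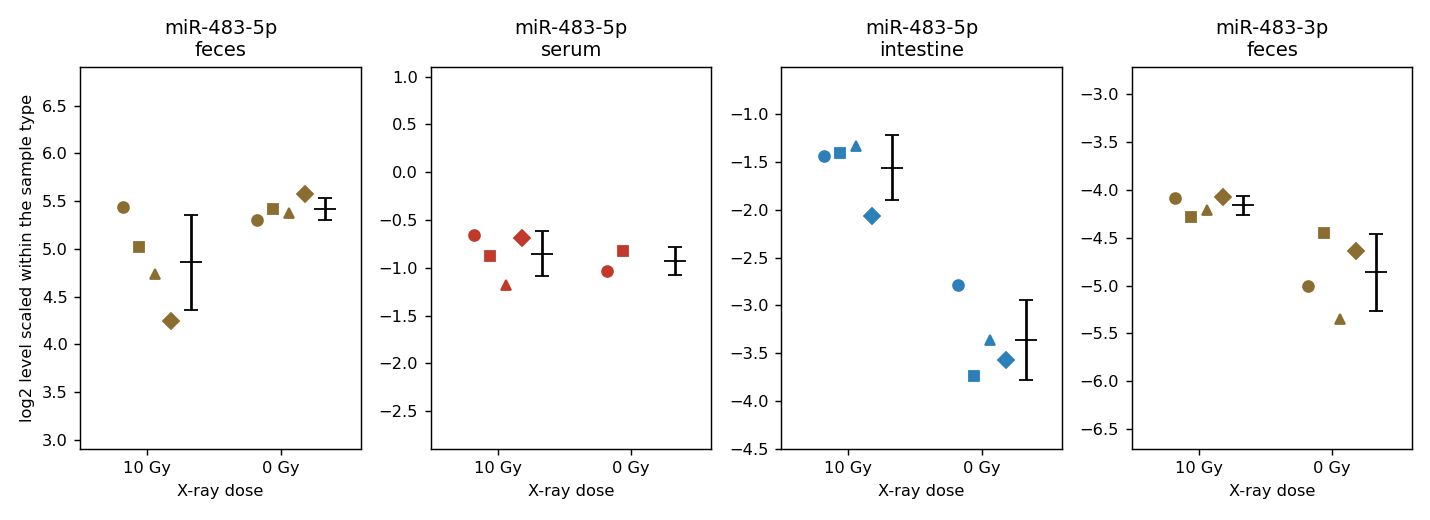
Log2 level scaled within the sample type, by X-ray dose, for miR-483-5p in feces, serum and intestine and for miR-483-3p in feces; every panel spans 4 log2 units. Points are arrays (circle, square, triangle and diamond for replicates 1 to 4) and bars are the mean ± SD; the doses do not overlap for miR-483-5p in intestine and for miR-483-3p in feces.

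Array 3 of unirradiated feces had the most detected miRNAs, 675, where the other 3 arrays of that group had 378 to 585. Without it the change of miR-483-5p in feces was -0.57 (limma adjusted p = 0.23) and that of miR-483-3p 0.53 (adjusted p = 0.16). The direction of either arm did not rest on that array. The feces arrays detected all 8 epithelial miRNAs, of which 0 passed limma between the doses (0 at an unadjusted p under 0.05). Their median log2 change in feces was 0.77, beside 0.15 over all tested. The dose effect in feces minus that in serum, tested in 1 fit of all groups, was -0.38 ± 0.37 for miR-483-5p (95% interval -1.17 to 0.40, limma adjusted p = 0.79) and 5.07% of 749 miRNAs passed that test.

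Among the 8 feces arrays the 2 arms did not run together once scaled (Pearson r = -0.50, Spearman rho = -0.40), while their unscaled signals did (r = 0.68, rho = 0.67). These arrays share the scaling constant described above, and the relation is given as a description.

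Since the 5p arm is the most purine-rich miRNA with a sequence, the other purine-rich miRNAs, with at least 80% purines (39 of 1608, or 2.43%, with the 5p arm), were described beside it. Across the 131 miRNAs with a sequence that were detected on all unirradiated feces and intestine arrays, the level in feces minus intestine ran with the purine share (Spearman rho = 0.53). The 19 purine-rich ones other than miR-483 had a median log2 difference of 1.77, beside a median of -0.83 over all 131. Of the 19, 14 were above 0, beside 52 of all 131. At 10 Gy the rho was 0.52 over 160 miRNAs, with medians of 1.25 for 24 purine-rich ones and -0.66 for all. Against serum the relation was weaker, with a rho of 0.33 over 87 miRNAs at 10 Gy and 0.35 over 116 at 0 Gy. These miRNAs share the arrays, their depth and the scaling, so the relation has no p.

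**Figure D4:**
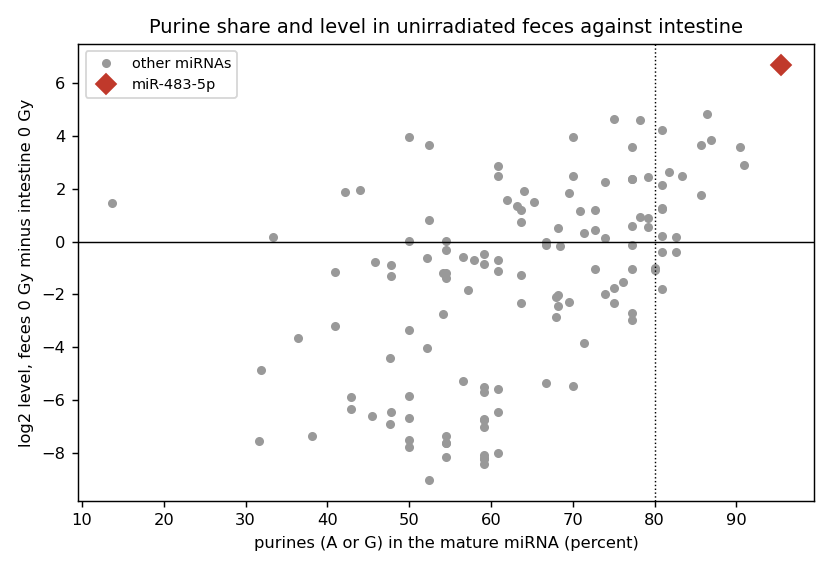
Level in unirradiated feces minus unirradiated intestine (log2, scaled over the miRNAs detected on all arrays) against the percent of purines in the mature miRNA, for the 131 miRNAs detected on every array of both groups. The diamond is miR-483-5p, at 95.5% purines and a difference of 6.68, the dotted line marks 80%, and the points at or above 80% had a median of 1.77 without miR-483.

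By dose, 10 of 24 tested purine-rich miRNAs rose in intestine and 0 fell, with a median log2 change of 0.41, beside 78 higher and 47 lower of all 291 tested with a sequence and a median of 0.15. In serum 0 of 27 passed limma in either direction (2 at an unadjusted p under 0.05, median -0.19, beside -0.11 over all 165). In feces 2 of 34 rose and 2 fell, where 3.46% of all tested rose and 4.07% fell, with a median of -0.29 beside 0.19 over all 424, and the purine share ran against the change (Spearman rho = -0.35). The pyrimidine-rich miRNAs tested in feces, 9 without the 3p arm, had a median change of 0.67, and 0 passed limma (8 at an unadjusted p under 0.05, all higher). Such unadjusted values are common in feces, where 192 of all 491 tested lay under 0.05 in either direction. Each arm of miR-483 in feces had the sign of the median of its own base class, and for the 3p arm this is also the sign of the median over all 424. Neither arm passed, and the part of base composition in either change was not tested.

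The miRNAs whose levels ran most like those of miR-483-5p were named by Pearson correlation. Over the 8 intestine arrays these were miR-7118-5p (r = 0.989), miR-721 (0.986), miR-3102-5p (0.985), miR-125a-3p (0.981) and miR-8101 (0.979), and 34 of 334 candidates exceeded 0.9. Their intestinal log2 changes lay between 0.78 and 2.34, a direction that follows from choosing them by likeness over these arrays. Over all 22 arrays they were miR-1982-5p (0.981), miR-7118-5p (0.979), miR-1904 (0.978), miR-1896 (0.965) and miR-6370 (0.964), and 16 of 263 exceeded 0.9. Each was highest in feces, so these correlations also carry the gap between feces and the other sample types. In intestine miR-1896 and miR-6370 were each detected on 2 of 4 arrays at 10 Gy and 0 of 4 at 0 Gy. In serum miR-1896 was detected on 0 of 4 and 1 of 2. The correlations of both thus rest in part on undetected values. miR-7118-5p stood in both lists. Its log2 level on the scale of all arrays was 3.95 ± 0.49 and 4.03 ± 0.57 in feces at 10 Gy and 0 Gy, 0.00 ± 0.06 and -0.11 ± 0.16 in serum, and 0.74 ± 0.46 and -0.79 ± 0.27 in intestine (SD, n = 4, and 2 for serum at 0 Gy).

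miR-7118-5p is shown because it is in both lists and is also purine-rich, with 86.4% purines. The capitals mark the longest run of bases it shares with miR-483-5p, its bases 10 to 16 and bases 5 to 11 of miR-483-5p (RefSeq, GRCm38.p6, minus strand).
miR-7118-5p, 22 bases, chr15:89162882-89162903: uggggaaggCGGGAGAgggaac
A shared run of at least 7 bases occurs in 38 of the 1607 other array miRNAs with a sequence, or 2.36%. The longest runs that the other 8 named miRNAs share with miR-483-5p are of 4 to 6 bases. For miR-483-3p over the 8 feces arrays the likest were miR-7085-3p (0.992), miR-7653-3p (0.985), miR-6934-3p (0.983), miR-7080-3p (0.982) and miR-6924-3p (0.981), with 18.2% to 27.3% purines, and 46 of 490 exceeded 0.9.

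The neighbour hairpin in H19 gave no signal to set beside miR-483: miR-675-5p and miR-675-3p were detected on 0 of 22 arrays. Among 6 arms of other imprinted loci, those in Mest and Gnas, 3 were tested in feces and 1 each in intestine and serum, and 0 passed limma (2 in feces at an unadjusted p under 0.05, and 0 in intestine and serum). The largest imprinted miRNA cluster, Dlk1-Dio3, had 107 arms on the array, of which 10 were tested in intestine. There 5 rose and 2 fell, with a median log2 change of 0.54 beside 0.16 over all tested, of which 26% rose and 15.2% fell. miR-379-5p was at least 1.21-fold higher, with 4 of 4 arrays detecting it at 10 Gy and 0 of 4 at 0 Gy. Another of the 5 that rose was likewise detected on 4 of 4 and 0 of 4 arrays. Both entered the test through the irradiated arrays alone. Their calls compare signal with undetected values, which limits what the count of 5 can show. miR-300-3p, which 1 of 4 arrays detected at 0 Gy, rose by 0.82 ± 0.19 (limma adjusted p = 0.0052). miR-494-3p fell by 1.40 (SE 0.44, adjusted p = 0.022). miR-134-5p, which 2 of 4 arrays detected at 10 Gy, fell by 0.77 (SE 0.21, adjusted p = 0.013). In feces 1 of 13 passed, beside 7.54% of all tested, namely miR-494-3p, which rose there by 1.41 ± 0.34 (adjusted p = 0.045), and in serum 0 of 3 passed limma (0 at an unadjusted p under 0.05).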

How the data were processed

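The authors labelled total RNA of each sample with Cy3 and hybridised 1 sample per array, per the labels' protocols. The deposited intensity of each spot, the processed signal, is background-subtracted on a linear scale without normalization between arrays, per the file headers. It was made with Agilent Feature Extraction 11.5, per the submitters' processing notes. The authors' series table was equal to it within 1% at all 58594 spots of every array (column medians -1.55 to 2.1). 0 spots were saturated.

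Outlying spots were left out, spots averaged per probe and probes summed per miRNA. Each array was scaled by its 75th percentile over miRNAs that every array of that kind of sample detected, and the values were raised to a floor (the median over arrays of the lowest detected scaled value) and taken to log2. Doses were compared with limma 3.58.1 (R 4.3.3), Benjamini-Hochberg adjusted over all tested miRNAs. Tested were miRNAs whose number of detecting arrays reached the size of the smaller group. Feces and serum were compared in 1 fit of all 22 arrays. The limma steps were also run on simulated independent values with known changes. That simulation held no floor, scaling or deviating arrays, and nothing is read from it here. All p-values are two-sided.

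Each of 3 slides held 1 sample type, with 0 Gy in columns 1 and 2 and 10 Gy in columns 3 and 4, and the column cannot be told apart from the dose, while rows held both doses. The scans fell on 1 day. Arrays of a group correlated at 0.897 to 0.993. The number of arrays limits the precision. The array header names build mm9; coordinates are RefSeq's in GRCm38.p6.

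The members and lists were chosen with earlier results of these data known. Named miRNAs were both arms, the 5 most correlated with the 5p arm over intestine and over all arrays and with the 3p arm where tested, and up to 4 passing members of each list. The lists were the H19/Igf2, Mest and Gnas, and Dlk1-Dio3 loci, purine- and pyrimidine-rich sequences, and markers of neurons, endothelium, liver, erythrocytes, leukocytes, epithelium, and smooth muscle and mesenchyme. The endothelial list had 1 member tested, in intestine, and 0 passed limma (1 at an unadjusted p under 0.05). Of the neuronal list 1 was tested there and rose (miR-218-5p, 0.74 ± 0.18, limma adjusted p = 0.0084). It was detected on 4 of 4 arrays at 10 Gy but 1 of 4 at 0 Gy, so the change is mostly against undetected values. Alternatives were other background corrections, scalings, probe summaries, floors, filters, blocks and weights, and leaving out each array. The software's total gene signal was added after the data were seen.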

Additional observations from a re-analysis of the deposited data

Results flagged for a closer look

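Intestine 10 Gy replicate 4 had a miR-483-5p log2 level of -2.06, while the other 3 irradiated arrays lay between -1.44 and -1.33. Its gap to the nearest of them, divided by the group's range, was 0.851, above Dixon's 95% critical value of 0.829 for 4 samples. Both arms were looked at in 5 groups of 4 arrays, and chance flags about 1 in 20 groups. The array had 354 detected miRNAs, within the 331 to 389 of its group, and all 4 probes of miR-483-5p were detected on it. Its level still lay above all 4 unirradiated arrays, and leaving out any 1 intestine array gave a difference between 1.68 and 2.00.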

How the results depend on the processing

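The feces minus serum difference of miR-483-5p kept its direction and its side of the threshold under all 9 alternatives run at either dose (3.14 to 7.64 at 10 Gy, 3.86 to 8.14 at 0 Gy) and without each array (4.15 to 4.49 and 4.56 to 4.86). Its change in feces was negative and did not pass under all 16 alternatives (-1.20 to -0.13, limma adjusted p 0.081 to 0.80), nor without each array (-0.75 to -0.32, where -0.32 is without 10 Gy replicate 4). The intestinal difference of miR-483-5p was 2.27 without scaling, 1.29 scaled by the percentile over all miRNAs and 0.25 with normexp, and 1.68 to 2.00 without each array. Its serum change was reversed when scaled over all miRNAs (-0.14), without scaling (-0.70) and within slide row 2 (-0.11), and ran from -0.038 (without 0 Gy replicate 1) to 0.19 without each array.

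The miR-483-3p change in feces passed with array weights (0.62, adjusted p = 0.045), over a range of 0.05 to 0.85 and adjusted p of 0.045 to 1.00, and was 0.53 to 0.90 without each array. Its fitted level in feces minus serum (-1.95 at 10 Gy, -1.65 at 0 Gy) is no difference in level, since no serum array detected the arm and the unirradiated feces arrays lay at the floor; it was reversed without scaling (1.38 at 10 Gy, 1.07 at 0 Gy), did not pass with normexp at 0 Gy (-0.32, adjusted p = 0.39), and ran from -2.05 to -1.86 at 10 Gy and -1.92 to -1.41 at 0 Gy without each array. The cause of these moves was not tested.

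In intestine 138 miRNAs passed, and 91 with normexp, 32 with no detection filter (1881 tested), 50 within row 1 and 50 within row 2 of the slide, and 92 to 146 without each array. In serum 9 passed, and 3 without scaling, 5 with the floor lowered, 2 of those detected on every array, 24 in 1 fit of all groups, and by limma 0 with no filter, with the replicate block and within row 1 or row 2 (30, 26, 19 and 26 at an unadjusted p under 0.05). Without each array the serum count ran from 3 (without 10 Gy replicate 4) to 16 (without 10 Gy replicate 1), with 14 without 10 Gy replicate 3 and 5 without 0 Gy replicate 1. In feces 37 passed, and 3 with normexp, 18 with the floor lowered, 3 of those detected on every array, 5 with no filter, 86 in 1 fit of all groups, 56 within row 1, 0 by limma within row 2 (80 unadjusted) and 171 with array weights. Without each feces array the count was 137 (0 Gy replicate 4), 34 (0 Gy replicate 2), 20 (0 Gy replicate 3), 19 (10 Gy replicate 1), 6 (10 Gy replicate 2 or 3), 4 (10 Gy replicate 4) and 2 (0 Gy replicate 1), so a call or a miss in feces depends on single arrays.

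Same-numbered arrays of the 2 doses did not deviate together in every pair (r from -0.57 to 0.44), so the numbers were not taken to pair them. With the replicate block 137 miRNAs passed in intestine, 0 in serum and 39 in feces, and the feces changes had adjusted p of 0.23 for miR-483-5p and 0.12 for miR-483-3p. Signal over background limits the 3p arm outside feces and in unirradiated feces replicates 1 and 2. It also limits probe 1 of the 5p arm in unirradiated intestine and in serum.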
